A study of Homo sapiens with 6 samples.

Results

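The interleukin-1 (IL-1) family genes studied here are 10 genes chosen by name: the cytokines *IL1A*, *IL1B*, *IL18*, *IL33* and *IL36G*, the antagonists *IL1RN* and *IL36RN*, and the receptor chains *IL1R1*, *IL1RL2* and *IL1RAP*. They were found by symbol, after the Ensembl identifiers of the files had been matched to GENCODE release 44, and all 10 were present among 21475 genes. RNA came from 3 WT and 3 *FGFR2* KO lines of HaCaT cells, a human keratinocyte line that became immortal spontaneously, with 1 library per line. The KO lines carry a CRISPR/Cas9 disruption of *FGFR2*, which encodes a receptor for FGF7 and FGF10, made with a single guide RNA against its exon 7. All lines were grown in DMEM with fetal bovine serum, and no cytokine, growth factor or other agent is given for these samples. Each KO library stands for 1 clone grown from a single cell, the sequenced WT lines were clonally expanded as well, and such clones had lost terminal differentiation in 3D cultures, which limits them as a model of epidermis. With 1 library per line, p-values measure the spread between lines. Levels of a group are listed in the order of its replicates 1, 2 and 3.

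IL-1α and IL-1β bind IL1R1, which then recruits the shared chain IL1RAP and signals through MYD88 and the IRAK kinases to NF-κB and MAP kinases. The IL-1 receptor antagonist, encoded by *IL1RN*, occupies IL1R1 without recruiting IL1RAP, and the IL-36 receptor antagonist, encoded by *IL36RN*, does the same at the IL-36 receptor IL1RL2. In epidermis keratinocytes are a source of IL-1α, IL-18, IL-33 and IL-36γ as well as of the antagonists, and inherited loss of either antagonist causes pustular inflammation of the skin. IL-1β and IL-18 are made as precursors that need cleavage, so that RNA levels do not give the amount of active cytokine.

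The label of the cells was checked against markers. All 8 keratinocyte markers, among them *KRT5*, *KRT14* and *TP63*, were at 0.5 FPKM or more in every library, with a summed level of 11911.8 to 22176.1 FPKM in the WT lines and 17525.8 to 35265.7 FPKM in KO lines. FPKM is the number of fragments scaled to transcript length and library depth, so levels of different genes can be compared. *FGFR2*, the targeted gene, was at 21.6, 39.7 and 15.0 FPKM in the WT lines and at 3.04, 2.26 and 4.31 FPKM in the KO lines, so the KO libraries all lay under the lowest WT library. The depth, estimated from the steps between low values, was 67900000 to 88200000 fragments per library, at which 3 fragments on a transcript of 1 kb make 0.0340 to 0.0442 FPKM. The share of FPKM in mitochondrial genes was 27.6, 21.5 and 22.2% in WT and 15.8, 23.7 and 11.9% in the KO lines.

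Most of the genes lie together on chromosome 2. In GRCh38 coordinates, a receptor cluster from 101991960 to 102452565 holds 6 family genes, of which *IL1R1* and *IL1RL2* are studied here, and a cytokine cluster from 112773925 to 113134016 holds 9, of which *IL1A*, *IL1B*, *IL36G*, *IL36RN* and *IL1RN* are studied here. *IL18* lies on chromosome 11, *IL33* on chromosome 9 and *IL1RAP* on chromosome 3. The 250 bases before the MANE Select start are shown for *IL1B*, *IL1RL2* and *IL1RN*, since these genes had KO libraries entirely above or below the WT libraries and an entry in the RefSeq table of GRCh38.p14. *IL18*, the other such gene, had no entry. Each sequence is read 5′ to 3′ in the direction of transcription, and capitals mark a TATAAA match on either strand.

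IL1B (chr2:112836780-112837029, minus strand): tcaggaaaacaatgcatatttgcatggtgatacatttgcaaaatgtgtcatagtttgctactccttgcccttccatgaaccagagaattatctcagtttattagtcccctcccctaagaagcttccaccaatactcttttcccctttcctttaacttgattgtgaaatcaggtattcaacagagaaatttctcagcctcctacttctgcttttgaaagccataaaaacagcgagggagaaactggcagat
IL1RL2 (chr2:102186773-102187022, plus strand): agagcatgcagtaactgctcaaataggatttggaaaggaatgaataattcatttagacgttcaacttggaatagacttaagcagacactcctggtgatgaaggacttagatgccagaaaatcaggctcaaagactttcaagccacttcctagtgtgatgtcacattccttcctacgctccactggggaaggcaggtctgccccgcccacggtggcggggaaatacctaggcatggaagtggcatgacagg
IL1RN (chr2:113127348-113127597, plus strand): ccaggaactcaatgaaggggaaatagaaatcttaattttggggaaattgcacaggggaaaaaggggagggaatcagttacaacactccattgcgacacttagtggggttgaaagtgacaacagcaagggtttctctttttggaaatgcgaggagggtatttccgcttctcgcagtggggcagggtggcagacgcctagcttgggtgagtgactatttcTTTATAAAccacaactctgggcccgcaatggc

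Matches were sought on both strands for TGANTCA (AP-1), for the NF-κB consensus and for TATAAA, which were present in 6.57, 5.21 and 10.7% of all 35116 windows of this length. The *IL1B* and *IL1RL2* windows had no match, which says only that these letters are missing there. In the *IL1RN* window, TATAAA starts at base -30 from the start and overlaps TTTATA, its match on the other strand, at -32. The table gives 3 starts for *IL1RN*, and the window of the most upstream one, 9627 bases away, has the AP-1 match TGAGTCA at -223. Of the other members, *IL1A* has TGACTCA at -12 and TATAAA at -239 before its MANE Select start. The levels per gene do not separate the starts of a gene.

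Transcripts of *IL1RN*, *IL18* and *IL1RAP* were abundant and those of the other 7 members were scarce. In all 6 libraries *IL1RN* had the highest level, followed by *IL18* and then *IL1RAP*, and *IL33* was last. The 4th place was taken by *IL1B* in each KO library, and by *IL1R1* or *IL36RN* in the WT libraries. *IL1B* and *IL1RL2* were higher in every KO library than in any WT library, *IL1RN* and *IL18* were lower in every KO library, and the groups overlapped for the other 6 genes. Of all tested genes, which averaged 0.5 FPKM or more over the 6 libraries, 18.3% had every KO library above the WT libraries and 5.77% had every KO library below them. *IL1B* and *IL1RL2* reached that mean through their KO libraries alone, so they are not read against the 18.3%. None of the 7 members that could be tested passed the adjusted threshold in limma (an adjusted p up to 0.05, with a log2 difference of 0.5 or more in either direction), and neither did any of the 12241 genes tested (0.0%), of which 1536 met the same size with an unadjusted p up to 0.05. The targeted gene *FGFR2*, with a log2 difference of -2.73 and an unadjusted p of 9.2e-05, also had an adjusted p of 0.261 in limma. This was the smallest adjusted p of all tested genes, so failing the threshold is not read as the absence of a difference.

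**Figure D1:**
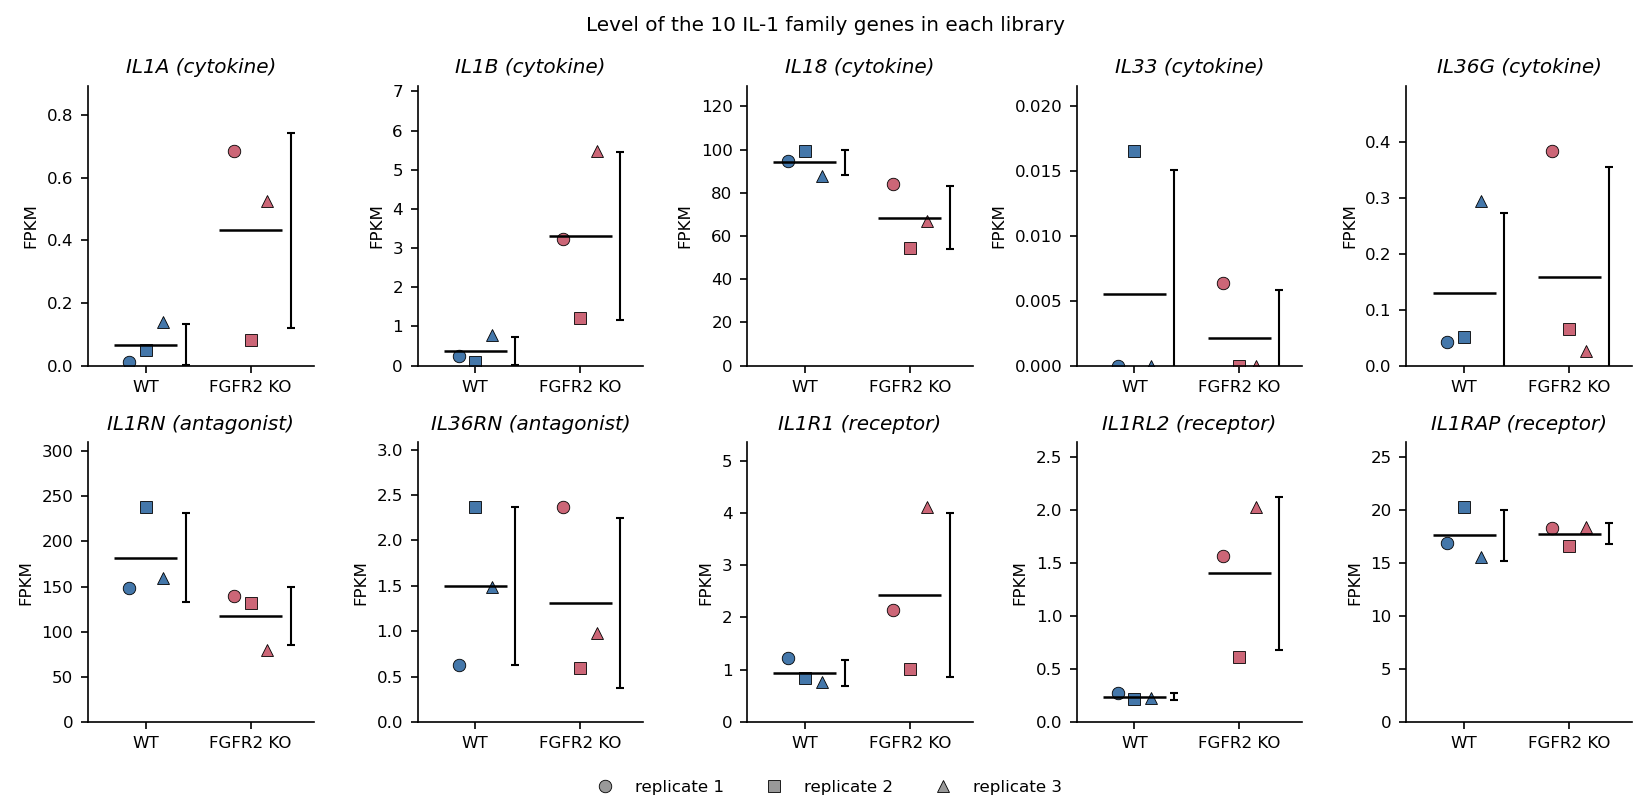
Level of each of the 10 genes in FPKM (vertical axes, each with its own scale from 0) in the 3 WT and 3 *FGFR2* KO libraries. Points are libraries with the shape giving the replicate number, horizontal lines are means and vertical bars are ± SD, cut at 0. The KO points lie entirely above the WT points for *IL1B* and *IL1RL2* and entirely below them for *IL18* and *IL1RN*.

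Among the cytokines, *IL1B* (ENSG00000125538, chromosome 2, 112829751 to 112836816, minus strand) had the largest ratio of means between the groups. Its level was 0.255, 0.0849 and 0.773 FPKM in the WT lines and 3.22, 1.22 and 5.49 FPKM in the KO lines. The lowest KO library, replicate 2, still lay above the highest WT library, replicate 3. The means were 0.371 ± 0.358 and 3.31 ± 2.13 FPKM (SD, n = 3 lines each), a ratio of 8.92. On the log2(FPKM + 0.5) scale the difference was 2.03 (SE 0.49, 95% interval 0.89 to 3.17), with an adjusted p of 0.261 and an unadjusted p of 0.00372 in limma. An exact permutation test gave p = 0.1, the smallest that 3 lines against 3 allow. The WT mean lay under the filter of 0.5 FPKM, so *IL1B* entered the test through its KO libraries.

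The level of *IL1A* (ENSG00000115008, 112773925 to 112784493, minus strand), the neighbour of *IL1B* and an alarmin that acts without cleavage, was 0.0122, 0.0511 and 0.139 FPKM in the WT lines and 0.686, 0.0832 and 0.525 FPKM in the KO lines. KO replicates 1 and 3 lay above the WT libraries, while KO replicate 2 lay under WT replicate 3. *IL1A* has 1 annotated transcript, and its values equalled whole fragments: 2, 7 and 20 in the WT lines and 122, 12 and 92 in the KO lines. Exact Poisson 95% intervals, which cover counting error only, were 0.0846 to 0.214 FPKM in WT replicate 3 and 0.043 to 0.145 FPKM in KO replicate 2. For KO replicates 1 and 3 the intervals began at 0.569 and 0.423 FPKM, above those of all WT libraries. The means were 0.0673 ± 0.0647 and 0.431 ± 0.312 FPKM (SD, n = 3 each), under the filter on low values. Without a filter the log2 difference of *IL1A* was 0.66 (SE 0.27, 95% interval -0.01 to 1.32), with an adjusted p of 0.407 in limma.

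*IL18* (ENSG00000150782, chromosome 11, 112143253 to 112164096, minus strand), which encodes an inflammasome-processed cytokine that keratinocytes store as a precursor, was the most abundant of the cytokines. It was at 94.9, 99.6 and 88.0 FPKM in the WT lines and 83.9, 54.6 and 67.0 FPKM in the KO lines. The KO libraries lay below all WT libraries, with KO replicate 1 close to WT replicate 3. The means were 94.2 ± 5.85 and 68.5 ± 14.7 FPKM (SD, n = 3 each), a ratio of 0.727. Its log2 difference was -0.48 (SE 0.18, 95% interval -0.89 to -0.07), with an adjusted p of 0.266 in limma and p = 0.1 in the exact permutation test.

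*IL36G*, which encodes the IL-36 cytokine best known from psoriatic keratinocytes (ENSG00000136688, chromosome 2, 112973203 to 112985658, plus strand), was at 0.0431, 0.0516 and 0.294 FPKM in the WT lines and 0.384, 0.0653 and 0.0269 FPKM in the KO lines. Each group had 1 library well above its others, and the groups overlapped throughout (exact permutation test, p = 0.8). The means were 0.129 ± 0.142 and 0.159 ± 0.196 FPKM (SD, n = 3 each), under the filter. *IL33* (ENSG00000137033, chromosome 9, 6215786 to 6257983, plus strand), an alarmin of barrier tissues, was listed at 0 in 4 libraries and had 0.0166 FPKM in WT replicate 2 and 0.0064 FPKM in KO replicate 1. These values correspond to an estimated 3 fragments or fewer, and no ratio is given for *IL33*.

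The antagonist *IL1RN* (ENSG00000136689, chromosome 2, 113099315 to 113134016, plus strand) was the most abundant member. Its level was 148.2, 238.3 and 159.8 FPKM in the WT lines and 139.7, 131.4 and 80.0 FPKM in the KO lines. The KO libraries all lay under the WT libraries, with KO replicate 1 close to WT replicate 1. The means were 182.1 ± 49.0 and 117.0 ± 32.4 FPKM (SD, n = 3 each), a ratio of 0.643, and the log2 difference was -0.65 (SE 0.27, 95% interval -1.27 to -0.02), with an adjusted p of 0.286 in limma and p = 0.1 in the exact permutation test. *IL36RN* (ENSG00000136695, 113058638 to 113065382, plus strand) was at 0.627, 2.37 and 1.49 FPKM in the WT lines and 2.37, 0.589 and 0.977 FPKM in the KO lines. The groups covered nearly the same range, and the log2 difference was -0.16 (SE 0.46, 95% interval -1.23 to 0.9), with an adjusted p of 0.876 in limma.

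Of the receptor chains, *IL1RL2* (ENSG00000115598, chromosome 2, 102187006 to 102240002, plus strand), the receptor for IL-36 cytokines, varied little among WT lines. Its level was 0.275, 0.213 and 0.229 FPKM in the WT lines and 1.57, 0.615 and 2.03 FPKM in the KO lines. All KO libraries lay above the WT libraries, KO replicate 2 by the least. The means were 0.239 ± 0.032 and 1.41 ± 0.723 FPKM (SD, n = 3 each), a ratio of 5.88, and the log2 difference was 1.29 (SE 0.34, 95% interval 0.5 to 2.07), with an adjusted p of 0.261 in limma and p = 0.1 in the exact permutation test. Like *IL1B*, it entered the test through its KO libraries.

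*IL1R1* (ENSG00000115594, chromosome 2, 102064544 to 102179874, plus strand), the signalling receptor for IL-1α and IL-1β, was at 1.23, 0.835 and 0.769 FPKM in the WT lines and 2.15, 1.02 and 4.12 FPKM in the KO lines. KO replicates 1 and 3 lay above the WT libraries, and KO replicate 2 lay under WT replicate 1. The ratio of the means was 2.57, and the log2 difference was 0.89 (SE 0.40, 95% interval -0.04 to 1.82), with an adjusted p of 0.308 in limma. *IL1RAP* (ENSG00000196083, chromosome 3, 190514051 to 190659750, plus strand), the chain that both receptors share, was at 16.9, 20.3 and 15.6 FPKM in the WT lines and 18.3, 16.6 and 18.4 FPKM in the KO lines. The groups overlapped, and the 95% interval of the log2 difference of 0.02 ran from -0.33 to 0.37 (limma, adjusted p = 0.956).

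**Figure D2:**
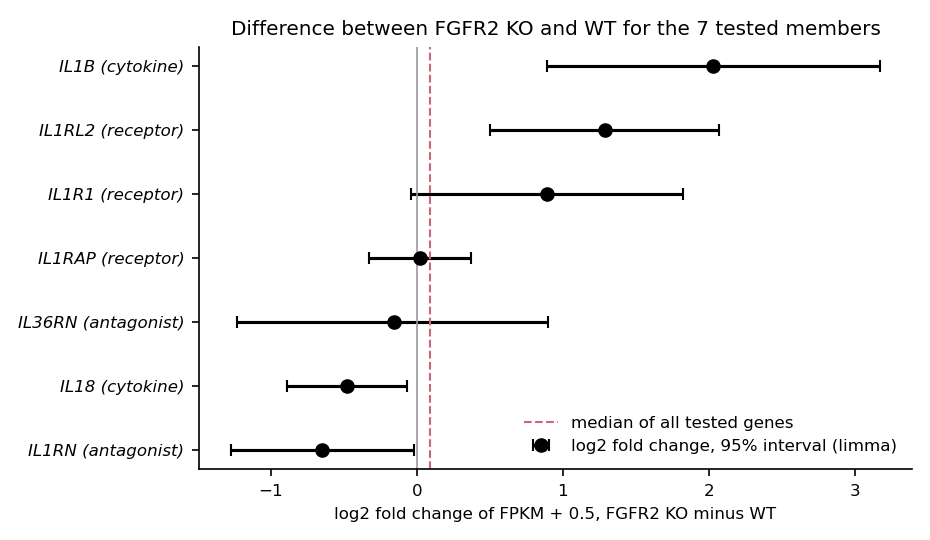
Difference between *FGFR2* KO and WT lines for the 7 members tested, as log2 fold change of FPKM + 0.5 (horizontal axis), with 95% intervals from limma and the median of all tested genes as a dashed line at 0.09. The intervals of *IL1B* and *IL1RL2* lie above 0, those of *IL18* and *IL1RN* lie below it, and *IL1RAP* has the narrowest interval, from -0.33 to 0.37.

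Against all tested genes, the members were divided. At that unadjusted threshold 10.2% of all tested genes were higher in KO lines and 2.33% were lower, and *IL1RN* was among the latter. *IL1B* and *IL1RL2* met the threshold for higher genes, but since they reached the filter through their KO libraries alone, they are not read against this share. Without a filter their unadjusted p was 0.00854 and 0.00589, and the adjusted p was 0.384 for both in limma. *IL1RN* had an unadjusted p of 0.0627 in limma without a filter and no longer met the threshold. In that fit 1126 genes were higher and 210 lower at the unadjusted threshold, of 18570 tested. Of 784 other tested genes on chromosome 2, 19.0% had all KO libraries above and 5.1% had them below the WT libraries. For the same reason *IL1B* and *IL1RL2* are not read against the 19.0%. The median log2 difference of the 7 tested members was 0.02 and that of all tested genes was 0.09, with 3 members left out for their low level. The median of the members counts *IL1B* and *IL1RL2*, so it is not read against that of all tested genes either. The *IL1B*, *IL1RL2*, *IL18* and *IL1RN* libraries stayed separated when the libraries were scaled to a common sum, by the median of ratios or to nuclear genes only, the last of which removes the mitochondrial share. The factors were 0.939 to 1.053 for the median of ratios and 0.928 to 1.069 for nuclear genes. The gaps of *IL1B* and *IL1RL2* were wider than such factors could close, so for these genes the scalings were no check. The genes with all KO libraries above and below the WT libraries numbered 2245 and 706 without scaling, 2462 and 558 with a common sum, 1515 and 1290 with the median of ratios and 1901 and 951 with nuclear scaling, so the background of *IL18* and *IL1RN* depended on the scaling. With nuclear scaling the ratios of the means were 8.26 for *IL1B*, 5.44 for *IL1RL2*, 0.684 for *IL18* and 0.615 for *IL1RN*.

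The KO lines differed among themselves. KO replicate 2, with the highest mitochondrial share of the KO libraries, had the lowest KO level of *IL1A*, *IL1B*, *IL1R1* and *IL1RL2*, and also of *IL18*, *IL36RN* and *IL1RAP*, and the part of that share in these levels was not tested. The highest KO level was 8.25 times the lowest for *IL1A*, 4.48 times for *IL1B*, 4.05 times for *IL1R1* and 3.3 times for *IL1RL2*. Without KO replicate 3, the log2 difference was 1.62 for *IL1B*, 0.49 for *IL1R1* and -0.39 for *IL1RN*, and without WT replicate 2 it was -0.44 for *IL1RN*. Among WT lines, replicate 3 had the lowest *FGFR2* and the highest *IL1A*, *IL1B* and *IL36G*, and replicate 2 had the highest *FGFR2* and *IL1RN* and the lowest *IL1B* and *IL1RL2*. In KO lines the remaining *FGFR2* RNA and *IL1B* were in the same order, highest in replicate 3 and lowest in replicate 2.

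Levels of antagonist and agonist RNA were set against each other within each library, as a description without a test. The ratio of *IL1RN* to *IL1A* plus *IL1B* in FPKM was 554.3, 1750.6 and 175.3 in the WT lines and 35.8, 100.5 and 13.3 in the KO lines. *IL1RN* RNA thus exceeded that of both agonists in every library, and each KO ratio lay below every WT ratio. *IL1RN* was lower and the sum of *IL1A* and *IL1B* higher in every KO library than in any WT library, so this separation restates theirs. On the log2 scale with 0.5 FPKM added to each term, the means were 7.66 ± 0.86 and 4.94 ± 1.28 (SD, n = 3 each). The ratio of *IL36RN* to *IL36G* was 14.6, 46.0 and 5.09 in the WT lines and 6.17, 9.03 and 36.4 in the KO lines, with overlapping groups. Between receptors, *IL1RL2* to *IL1R1* was 0.223, 0.255 and 0.298 in the WT lines and 0.73, 0.604 and 0.493 in the KO lines, so that each KO ratio lay above every WT ratio in plain FPKM. With 0.5 FPKM added the groups of this receptor ratio overlapped, at -0.95 ± 0.19 and -0.56 ± 0.27 on the log2 scale (SD, n = 3 each). *IL1RAP* exceeded *IL1RL2* by 61.5 to 95.2 times in WT and 9.05 to 27.0 times in KO lines.

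**Figure D3:**
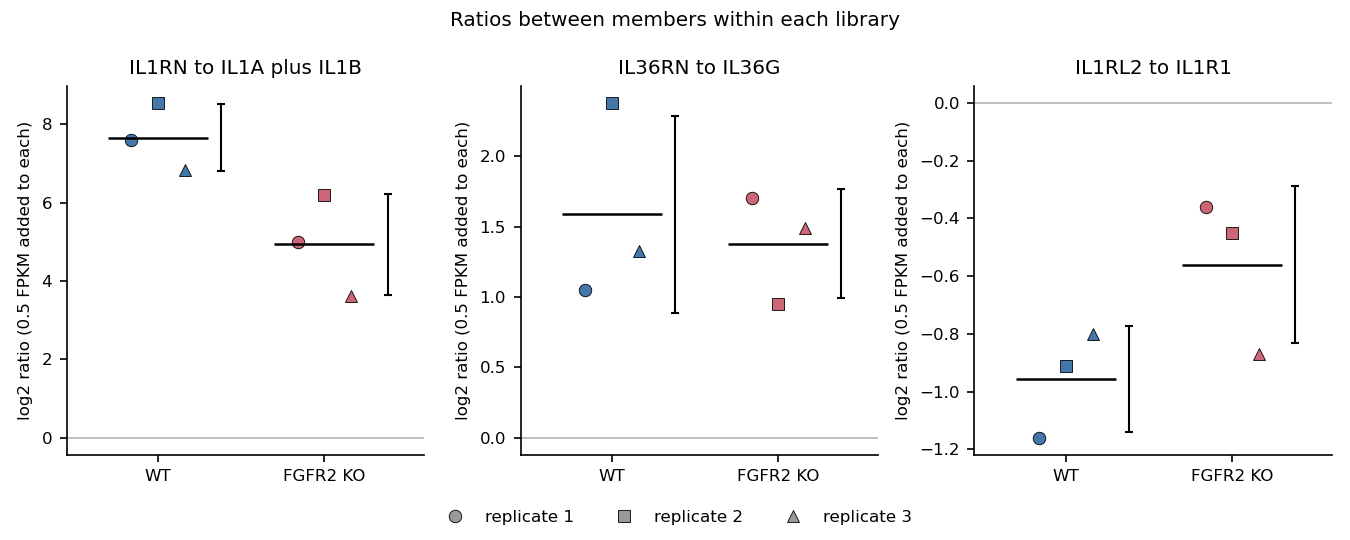
Ratios between members within each library (vertical axes, log2 ratio with 0.5 FPKM added to each term) for the 3 WT and 3 *FGFR2* KO libraries, with means as horizontal lines and ± SD as bars. For *IL1RN* to *IL1A* plus *IL1B* the KO points lie below all WT points, and in the other panels the groups overlap.

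The rest of the pathway was read from 4 lists, in which 0 genes passed the adjusted threshold in limma. Of 10 other family genes only *IL18BP* and *SIGIRR*, which encode a decoy for IL-18 and an inhibitory receptor, reached the filter, and neither met the unadjusted threshold. The decoy receptor *IL1R2*, under the filter, was at 0.0789, 0.0788 and 0.119 FPKM in the WT lines and 0.497, 0.105 and 0.295 FPKM in the KO lines, again with KO replicate 2 lowest in its group. *IL18RAP* was listed at 0 in 5 libraries, and the highest level of *IL18R1* was 0.14 FPKM, so both receptor chains for IL-18 were scarce where *IL18* itself was abundant. At these low levels the KO libraries of *IL18R1* lay above the WT libraries, as did those of *IL1RL1*, which reached at most 0.128 FPKM. The gaps were narrow, from 0.1 FPKM in WT replicate 2 to 0.11 FPKM in KO replicate 2 for *IL18R1*. For *IL1RL1* the gap ran from 0.0271 FPKM in WT replicate 1 to 0.0308 FPKM in KO replicate 2. The share of genes under the filter that separate in this way was not determined, so neither separation is read as a result. Both genes lie in the receptor cluster with *IL1RL2*, and the groups overlapped for *IL1R1*, *IL1R2* and *IL18RAP* there. Without a filter the adjusted p in limma was 0.384 for *IL18R1* and 0.433 for *IL1RL1*.

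Of 18 genes of signal transduction, 16 were tested, with a median log2 difference of -0.11 and 6 above 0. At the unadjusted threshold 2 were higher in KO lines and 0 lower, beside 10.2% and 2.33% of all tested genes. *IRAK1*, a kinase recruited by MYD88, was at 108.4, 98.0 and 136.1 FPKM in the WT lines and 166.4, 147.3 and 249.4 FPKM in the KO lines, with a log2 difference of 0.69 (SE 0.23; limma, adjusted p = 0.261). *UBE2N*, an enzyme that builds ubiquitin chains with TRAF6, was at 26.1, 23.1 and 30.8 FPKM in the WT lines and 34.1, 34.2 and 46.8 FPKM in the KO lines, with a log2 difference of 0.51 (SE 0.18; limma, adjusted p = 0.261). For both genes all KO libraries lay above all WT libraries, and for 1 other tested gene of the list, *TAB3*, they lay below. The shares among all tested genes were 18.3% and 5.77%.

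Of 15 genes of cytokine processing and release, 11 were tested, with a median of -0.16. At the unadjusted threshold 1 was higher and 1 lower, beside 10.2% and 2.33% of all tested genes. All KO libraries lay above all WT libraries for 1 gene and below them for 2, beside 18.3% and 5.77% of all tested genes. *CASP4*, an inflammatory caspase that can process IL-18, was at 86.6, 109.7 and 81.5 FPKM in the WT lines and 67.4, 71.3 and 53.8 FPKM in the KO lines, without overlap, and its log2 difference was -0.52 (SE 0.17; limma, adjusted p = 0.261). *GSDME*, which encodes a pore-forming gasdermin, was at 6.6, 8.85 and 10.2 FPKM in the WT lines and 16.1, 10.1 and 17.0 FPKM in the KO lines, with the groups overlapping at KO replicate 2 and a log2 difference of 0.70 (SE 0.25; limma, adjusted p = 0.261). *CASP1*, which cleaves the IL-1β and IL-18 precursors, had a log2 difference of 0.04 (SE 0.23; limma, adjusted p = 0.935).

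Among 22 genes known to respond to IL-1 or IL-36 in keratinocytes, 21 were found and 11 were tested. Of these 11, 0 were higher and 0 lower at the unadjusted threshold, beside 10.2% and 2.33% of all tested genes. Their median log2 difference was -0.15, against 0.09 for all tested genes. *CXCL8*, a neutrophil chemokine, was at 0.891, 0.406 and 0.385 FPKM in the WT lines and 0.347, 1.68 and 1.74 FPKM in the KO lines, with KO replicate 1 below all WT libraries and a log2 difference of 0.63 (SE 0.42; limma, adjusted p = 0.462). *IL6*, under the filter, was at 0, 0.0346 and 0.0164 FPKM in the WT lines and 0.0931, 0.377 and 0.054 FPKM in the KO lines. The KO libraries of *IL6* lay above the WT libraries, and its log2 difference without a filter was 0.35 (SE 0.17; limma, adjusted p = 0.452). For *IL6*, KO replicate 2 was the highest KO library, unlike for *IL1B* and *IL1RL2*. The KO libraries of *CXCL3*, also under the filter, lay above the WT libraries too, with a log2 difference of 0.3 (SE 0.06, adjusted p = 0.384 in limma). The groups overlapped for *CXCL2*, *CXCL5*, *CCL20*, *CSF2*, *CSF3* and *TNF*, which were under the filter as well. The share of genes under the filter that separate was not determined, so the separation of *IL6* and *CXCL3* is not read as a result. Of the 11 tested genes, *TNFAIP3* alone had all KO libraries above the WT libraries, and 0 had them below. The shares among all tested genes were 18.3% and 5.77%. *CXCL10* and *DEFB4A* were listed at 0 in all libraries. *IL6*, *CXCL8*, *CXCL10*, *CXCL3*, *CXCL2*, *CXCL5*, *CCL20*, *CSF2*, *CSF3*, *TNF*, *TNFAIP3*, *DEFB4A*, *IL1R2*, *IL1RL1*, *IL18R1*, *IL18RAP*, *TAB3* and *CASP1* were named after their values had been seen.

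**Figure D4:**
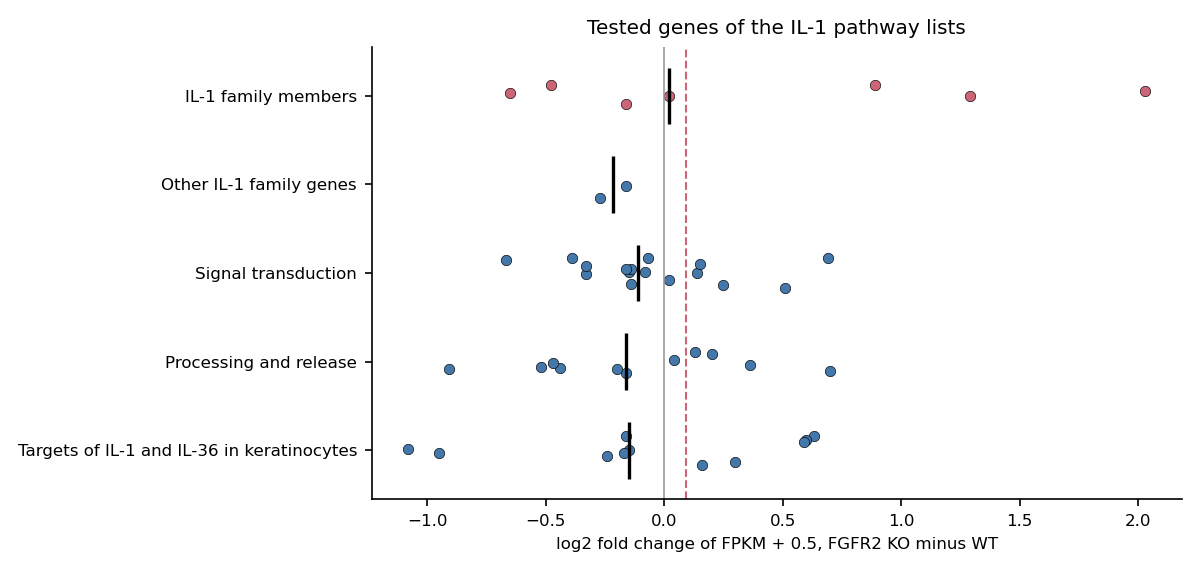
Log2 fold change of FPKM + 0.5 between *FGFR2* KO and WT lines (horizontal axis) for the tested members and the tested genes of the 4 pathway lists, 1 point per gene. Short vertical lines are list medians, at 0.02, -0.21, -0.11, -0.16 and -0.15 from top to bottom, and the dashed line is the median of all tested genes at 0.09. The median of the members counts *IL1B* and *IL1RL2*, which reached the filter through their KO libraries alone.

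Markers of other cell types were measured in the same libraries, although the cells are a keratinocyte line that was sorted as single cells before expansion. Of 6 immune markers, *CD1A* was at 0 in all libraries, and *PTPRC*, *CD3E* and *LYZ* did not exceed 0.153, 0.0429 and 0.213 FPKM. *CD14*, named after its values had been seen, was at 0.662 to 1.62 FPKM in WT and 0.69 to 0.77 FPKM in KO lines. The summed immune level was 12.5 to 22.3 FPKM in the WT lines and 5.27 to 11.7 FPKM in KO lines, most of it *CD68*. Summed fibroblast markers were at 7.99 to 33.2 FPKM in WT and 6.91 to 12.6 FPKM in KO lines, highest in WT replicate 2 with 15.5 FPKM of *DCN*, melanocyte markers at 0.881 to 2.44 and 0.708 to 1.07 FPKM, and endothelial markers at 18.1 to 27.2 and 5.82 to 17.5 FPKM. Differentiated keratinocyte markers summed to 1456.6 to 7525.9 FPKM in the WT lines and 488.2 to 4755.4 FPKM in KO lines, and the part of any of these markers in the levels of the family genes was not tested. *COL1A1* and *VWF*, named after their values had been seen, were the largest part of the fibroblast and endothelial sums in every library. Neither sum shows that such cells were present. In bulk RNA, fewer cells of a type and less RNA per cell cannot be told apart.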

How the data were processed

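Poly(A)-selected, strand-specific RNA of the 6 lines was sequenced with paired-end reads. The submitters' processing notes name fastp 0.20.0 and Kallisto 0.46.1. The authors trimmed adapters and poly-x runs, pseudoaligned the reads to GRCh38.p13 with GENCODE release 37 and deposited FPKM per gene; the step from the estimates to FPKM is not given in the sources used here. Of 21493 genes, 18 Y copies of pseudoautosomal genes with values identical to the X copies were left out, and 21400 of the remaining 21475 matched a symbol of GENCODE release 44. Of 3802 values up to 0.05 FPKM, 65.8% were whole fragments within 0.02 (4% by chance), a share short of nearly all values, so whole reads were not taken as recovered across genes and no count model was run.

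The 12241 genes whose 6 libraries averaged 0.5 FPKM or more were compared on log2(FPKM + 0.5) with limma 3.58.1 (R 4.3.3) with group as the only term, a mean-variance trend and Benjamini-Hochberg adjustment over all tested genes. This scale understates the change of low genes. Exact permutation tests were two-sided. The alternatives were other pseudocounts (0.1 and 1), a filter of 2 FPKM or none, scaling to a common sum, by the median of ratios, by quantiles or to nuclear genes, robust empirical Bayes, library weights, the replicate number as a block and each library left out in turn.

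Genes named are the members, *FGFR2*, pathway genes that met the unadjusted threshold (p up to 0.05, log2 difference of 0.5 or more in either direction), and the 3 genes most correlated with *IL1RL2* and with *IL1B*; others are said to be named after their values were seen. The members and lists were chosen with earlier results of these data known. Intervals on fragments cover counting error only.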

Additional observations from a re-analysis of the deposited data

How the results depend on the processing

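Over 115 combinations of a member and an alternative setting, 103 kept the direction and the side of the adjusted threshold, 10 reversed direction and 2 changed the call. Library weights, which gave WT replicate 1 a weight of 10.3 and WT replicate 2 a weight of 0.358, called 1396 genes (1160 higher and 236 lower in KO lines), among them *IL1B* (2.09, adjusted p = 0.0313 in limma) and *IL1RL2* (1.25, adjusted p = 0.0313), turned *IL36RN* to 0.76, and brought *IL1RN* from -0.65 to -0.26 (adjusted p = 0.316) and *IL1R1* from 0.89 to 0.58 (adjusted p = 0.155). The other alternatives called 0 genes. The adjusted p over all alternatives ran from 0.0313 to 0.617 for *IL1B*, from 0.0313 to 0.633 for *IL1RL2*, from 0.0937 to 0.638 for *IL18*, from 0.199 to 0.684 for *IL1RN* and from 0.142 to 0.721 for *IL1R1*. The log2 difference of *IL1RAP*, near 0, turned to -0.07 with median-of-ratios scaling, -0.1 with quantile normalization and -0.06 with nuclear scaling, the last chosen after the data had been seen. The log2 ratio of *IL1RL2* to *IL1R1* moved from 0.4 to 0.92 with 0.1 FPKM added in place of 0.5, and to 0.19 with 1 FPKM added. The causes were not tested.

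Leaving out 1 library at a time gave log2 differences of 1.62 to 2.51 for *IL1B*, 1.04 to 1.63 for *IL1RL2*, -0.79 to -0.39 for *IL1RN*, -0.63 to -0.33 for *IL18*, 0.49 to 1.29 for *IL1R1*, -0.55 to 0.15 for *IL36RN* and -0.06 to 0.12 for *IL1RAP*. The number of genes at the unadjusted threshold ran from 630 without KO replicate 3 to 2256 without KO replicate 2, with 960 without WT replicate 1. It split into 1251 higher and 285 lower genes as reported, 817 and 488 with median-of-ratios scaling, 803 and 502 with quantile normalization and 929 and 400 with nuclear scaling. With the replicate number as a replicate block, the adjusted p was 0.0972 for *IL1B*, 0.139 for *IL1RL2* and 0.199 for *IL1RN*, 0 genes were called, and 1762 met the unadjusted threshold. The deviations of libraries with the same number correlated at -0.21, 0.22 and 0.05. With 3 lines per group this cannot settle whether the numbers pair the lines, and the sample labels do not say. *IL1B*, *IL1RL2*, *IL1R1* and *IL36RN* were under a filter of 2 FPKM and gave no value there. Levels of *IL1A*, *IL33* and *IL36G* rest on few fragments, and so do the WT levels of *IL1B* and *IL1RL2*. Estimated with the MANE Select length, the WT lines had 31.3, 8.7 and 83.4 fragments of *IL1B* and 57.3, 37.1 and 42.1 of *IL1RL2*.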

Other observations

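The genes whose pattern over the 6 libraries was most like that of *IL1RL2* were *TAF4B*, a subunit of the TFIID complex, *WRN*, a DNA helicase, and *UBXN8*, with Pearson correlations of log2(FPKM + 0.5) of 0.9933, 0.9916 and 0.9903. Their log2 differences between KO and WT lines were 0.82, 0.47 and 0.59. *TAF4B* was at 0.998, 1.07 and 1.0 FPKM in WT and 2.37, 1.42 and 3.03 FPKM in KO replicates 1, 2 and 3, with KO replicate 2 again lowest in its group. For *IL1B* the closest were *RCC1*, a regulator of Ran, *SNRPA1*, a spliceosome component, and *BOD1*, a mitotic protein, at 0.9989, 0.9989 and 0.9978, with log2 differences of 1.19, 0.60 and 0.55. A correlation above 0.95 was reached by 250 genes for *IL1RL2* and by 751 genes for *IL1B*. The 6 points share 2 groups and 6 libraries, so these correlations hold the difference between the groups and are given as a description.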
